A study of Mus musculus with 10 samples.

Results

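Transcript levels of the GATA zinc-finger factors, of the related repressor TRPS1 and of the FOG (friend of GATA) cofactors were compared between the inner and the outer layer of the mouse mammary epithelium. The 9 genes were taken by name: Trps1, Gata1 to Gata6, Zfpm1, which encodes FOG1, and Zfpm2, which encodes FOG2. They are 9 of the 24594 genes in the count table. Of the 9, 4 had enough counts to be among the 14609 genes tested, namely Trps1, Gata3, Zfpm1 and Zfpm2. Gata1, Gata2, Gata4, Gata5 and Gata6 had too few counts and are described by their counts.

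The data are bulk RNA-seq of 5 luminal and 5 basal libraries. Every library came from a wild type C57BL/6J mouse of virgin status, and no agent is named for either group, so the labels set the groups apart by sorted layer alone. Glands were dissociated with enzymes, and luminal cells, which line the duct, and basal cells, the contractile outer layer, were sorted by flow cytometry on EpCAM and CD49f. Libraries held 13203146 to 17998165 counts. In each of the 10 libraries the title carries the name of the other cell type. Libraries were grouped by the cell type field, and the source field and the letter (B or L) within the description go with that field. All 16 luminal and all 10 basal marker genes checked were called higher in the layer of the cell type field. The luminal sort was made on surface proteins that luminal progenitors and mature luminal cells share, so a luminal library can hold both. In bulk libraries a smaller number of cells of a type and less RNA per cell cannot be told apart.

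GATA factors bind DNA at GATA motifs through a pair of zinc fingers and regulate transcription together with cofactors. GATA1, GATA2 and GATA3 are best known from blood lineages and GATA4, GATA5 and GATA6 from heart and gut, while GATA3 is also a defining factor of the luminal mammary lineage. TRPS1 carries a single GATA-type finger and acts mainly as a repressor, also through the NuRD corepressor complex. FOG proteins do not read the GATA motif themselves: they bind a zinc finger of the GATA factor and recruit NuRD or CtBP corepressors.

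The 250 bases before a start site listed in the RefSeq promoter table are shown for Gata3, the only GATA gene abundant in these cells, and for Gata1 and Gata2, its nearest relatives, which were close to absent. The sequences are from RefSeq on GRCm38.p6, 5′ to 3′ on the gene's strand, and capitals mark the letters GGGCGG, the core of a box read by SP and KLF factors, searched on both strands. The windows are chr2:9878601-9878850 on the minus strand for Gata3, chr6:88193641-88193890 on the plus strand for the first of the 2 Gata2 starts, and chrX:7967911-7968160 on the minus strand for Gata1. The starts used for Gata3 and Gata1 lie 9353 and 8753 bases inside the span that RefSeq gives the gene, so they are not its outermost starts.
Gata3: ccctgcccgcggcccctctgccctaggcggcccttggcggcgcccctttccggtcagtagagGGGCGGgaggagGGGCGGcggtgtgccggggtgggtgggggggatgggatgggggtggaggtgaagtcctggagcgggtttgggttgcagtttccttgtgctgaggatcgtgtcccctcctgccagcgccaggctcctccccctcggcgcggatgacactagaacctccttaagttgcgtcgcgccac
Gata2: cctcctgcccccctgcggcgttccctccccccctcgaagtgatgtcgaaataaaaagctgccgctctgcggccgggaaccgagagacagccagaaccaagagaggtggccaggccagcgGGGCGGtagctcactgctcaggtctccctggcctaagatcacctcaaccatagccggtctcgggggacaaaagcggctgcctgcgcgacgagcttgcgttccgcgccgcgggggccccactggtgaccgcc
Gata1: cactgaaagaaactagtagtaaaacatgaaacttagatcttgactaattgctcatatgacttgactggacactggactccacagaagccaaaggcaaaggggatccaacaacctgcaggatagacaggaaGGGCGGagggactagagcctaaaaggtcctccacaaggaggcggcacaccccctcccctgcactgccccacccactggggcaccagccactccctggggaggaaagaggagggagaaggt

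GGGCGG occurred 2 times before Gata3, 1 time before this start of Gata2 and 1 time before Gata1. It was present in 32.7% of all 32851 promoter windows of this length. The Gata3 window held 19 CG dinucleotides and the Gata2 window 22, against 2 in the Gata1 window and a median of 6 over all windows. None of these windows, nor those of Gata5, Zfpm1 and the second Gata2 start, held on either strand one of the 4 GATA hexamers, that is AGATAA and its forms with T as the first letter, G as the last letter or both. Of all windows, 26.5% held at least 1 of them. They also lacked the letters TATAAA, found in 12.4% of windows. Before Zfpm1, GGGCGG occurred 3 times among 28 CG dinucleotides. A match or its absence describes these letters in these windows only. No window is described here for Trps1, Gata4, Gata6 or Zfpm2.

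The first comparison asked in which layer each gene was more abundant. Of the 4 genes tested, 3 were called at an adjusted p under 0.05 (edgeR quasi-likelihood test with Benjamini-Hochberg adjustment over all genes tested), and all 3 were higher in luminal cells: Gata3, Trps1 and Zfpm1. The layers differ broadly, since 64.8% of all genes tested were called and 33.6% were called higher in luminal cells, so 3 of 4 genes called in either direction stands near its background, while 3 of 4 called higher in luminal cells stands above the background for that direction. With 4 genes tested this is a description only. Levels are given as CPM (depth-scaled counts) on the TMM-scaled library total, and fold changes are luminal over basal on the log2 scale with their standard error (SE).

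Trps1 (Entrez 83925, chr15:50654757-50890631, minus strand) was present in all libraries. Luminal replicates 1 to 5 had 190, 136, 131, 179 and 187 CPM, and basal replicates 1 to 5 had 79.1, 60.0, 55.9, 40.8 and 77.0 CPM. Every luminal library was above every basal library. The mean was 164 ± 28.4 CPM in luminal and 62.6 ± 15.9 CPM in basal cells (SD, n = 5 each). The log2 fold change was 1.39 (SE 0.19, edgeR adjusted p = 1.64e-05), or 2.63-fold. The basal level was therefore 38.0% of the luminal level and not near 0. Between libraries of the same replicate number the fold lay between 2.26 and 2.43 in 4 pairs and was 4.38 in the fourth, where the basal library had the lowest Trps1 level of all. The exons of Trps1 share 25 bases (0.187%) with Mir1907, which had 13 luminal and 1 basal counts in sum.

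Gata3 (Entrez 14462, chr2:9857078-9887953, minus strand), needed to form and keep the luminal lineage, was the most abundant of the 9 genes. Luminal replicates 1 to 5 had 529, 450, 504, 608 and 478 CPM, and basal replicates 1 to 5 had 216, 193, 173, 185 and 212 CPM. The groups did not overlap. The means were 514 ± 60.4 CPM and 196 ± 17.98 CPM (SD, n = 5 each). The log2 fold change was 1.39 (SE 0.14, edgeR adjusted p = 7.03e-07), or 2.62-fold, and the basal level was 38.1% of the luminal one. All 5 pairs of equal replicate number were higher in luminal cells, by 2.26- to 3.28-fold. Groups without overlap were common, at 50.1% of all genes tested, and at 24.7% with the luminal group higher. The exons of Gata3 share 77 bases (1.94%) with 9230102O04Rik on the same strand and 155 bases (3.90%) with the antisense gene Gm13256. The library kit named in the labels does not mark strand, so reads in these stretches cannot be told apart. 9230102O04Rik was counted 2735 times in luminal and 502 times in basal libraries in all, against 40770 and 15044 for Gata3.

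Zfpm1 (Entrez 22761, chr8:122281856-122337862, plus strand) encodes FOG1, the cofactor known from GATA1-driven blood cell maturation. Luminal replicates 1 to 5 had 41.0, 29.1, 34.7, 21.4 and 35.3 CPM, and basal replicates 1 to 5 had 18.7, 21.1, 18.7, 18.6 and 26.2 CPM. The groups overlapped through luminal replicate 4, which lay below basal replicate 5. The other 4 luminal libraries were above every basal library. The mean was 32.3 ± 7.41 CPM in luminal and 20.7 ± 3.28 CPM in basal cells (SD, n = 5 each). The log2 fold change was 0.65 (SE 0.18, edgeR adjusted p = 0.00643), or 1.57-fold, and all 5 pairs were higher in luminal cells, by 1.15- to 2.20-fold.

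Zfpm2 (Entrez 22762, chr15:40655042-41104592, plus strand) encodes FOG2, the partner of GATA4 in heart and gonad. Luminal replicates 1 to 5 had 4.44, 4.21, 3.80, 3.36 and 4.18 CPM, and basal replicates 1 to 5 had 3.36, 5.59, 4.95, 2.12 and 4.67 CPM. The basal libraries spread to both sides of the luminal ones. The means were 3.996 ± 0.425 CPM and 4.14 ± 1.39 CPM (SD, n = 5 each), and luminal cells were higher in 2 of 5 pairs. The log2 fold change of -0.05 (SE 0.29, edgeR adjusted p = 0.898) was smaller than its error, and its sign changed with upper-quartile scaling (0.07) and with library totals (0.14).

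**Figure D1:**
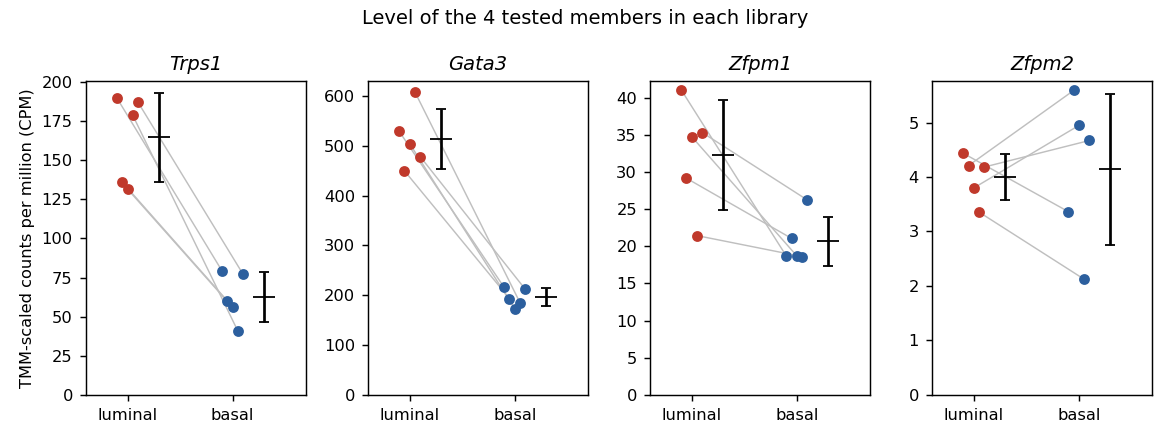
TMM-scaled CPM (vertical axis, from 0) of Trps1, Gata3, Zfpm1 and Zfpm2 in the 5 luminal (red) and 5 basal (blue) libraries, with grey lines between libraries of equal replicate number and black bars for mean ± SD. Trps1 and Gata3 separate the layers fully, Zfpm1 overlaps through the luminal library at 21.4 CPM, and the basal libraries of Zfpm2 lie on both sides of the luminal ones.

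Lowly expressed GATA genes were read as counts. Gata1 (Entrez 14460, chrX:7959260-7976663), the erythroid and megakaryocyte factor, had 1, 1, 0, 2 and 0 counts in luminal replicates 1 to 5 and 3, 2, 2, 6 and 3 counts in basal replicates 1 to 5. The sum was 16 in basal against 4 in luminal libraries, a ratio of CPM of 4.20 with a 95% exact interval of 1.36 to 17.3. Such intervals cover counting error only. Without the filter on low counts, 48.8% of 20612 genes were called, and Gata1 was not (edgeR adjusted p = 0.127).

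Gata2 (Entrez 14461, chr6:88193891-88207032), which acts in blood stem cells, mast cells and endothelium, had 1 count in luminal replicate 3 and 0 in the other luminal libraries. Basal replicates 1 to 5 had 4, 2, 5, 0 and 2 counts. The ratio of 13 basal counts to 1 luminal count, on the CPM scale, was 13.7 with an interval of 2.05 to 580.3, so its size is almost undetermined. It was called without the filter (edgeR adjusted p = 0.0379), and this rests on 14 counts in all 10 libraries. Of 7 mast cell and basophil markers, Fcer1a, Ms4a2 and Mcpt8 were at 0 counts in every library. Others on that list had counts: Cpa3 was at 0.318 CPM in luminal and 0.233 CPM in basal cells. Mcpt4 and Cma1 had at most 14 and 8 counts in a luminal library and 0 in basal libraries. The sum over the 7 markers was 0.184 to 1.39 CPM in luminal and 0.120 to 0.4996 CPM in basal libraries. The 8 endothelial markers summed to 5.25 to 11.9 CPM in luminal and 10.6 to 18.5 CPM in basal libraries, and none was at 0 counts in all libraries. The study's methods describe a lineage stain for TER-119, CD31 and CD45 in its sorts. Of the 5 endothelial markers tested, Cdh5 and Esam were called higher in basal cells, Egfl7 was called higher in luminal cells, and Pecam1 and Tek were not called. The 7 erythroid and megakaryocyte markers summed to 12.7 to 26.8 CPM in luminal and 8.35 to 13.4 CPM in basal libraries. Without Hba-a1 the sums were 5.43 to 13.05 CPM and 8.35 to 13.4 CPM. Hba-a1 and Pf4 were called higher in luminal cells, and Alas2 and Itga2b were not called. The part of such cells in these counts was not tested.

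Gata4 (Entrez 14463, chr14:63198914-63271712), a heart and endoderm factor, had 1, 11, 11, 17 and 8 counts in luminal replicates 1 to 5 and 4, 3, 1, 10 and 6 counts in basal replicates 1 to 5. The groups overlapped widely, with 48 luminal and 24 basal counts in sum, a ratio of CPM of 1.90 (95% counting interval 1.14 to 3.25), and an edgeR adjusted p of 0.337 without the filter. Gata5 (Entrez 14464, chr2:180325088-180335503), a related factor of heart and gut, had 8 counts in luminal replicate 1 and 3 in luminal replicate 3, and 0 in the other 8 libraries. Against the 3 counts that a count of 0 allows over the basal group, or 0.0393 CPM, the luminal sum of 11 counts was at least 3.49-fold higher. Without luminal replicate 1 the luminal sum was 3 counts over 4 libraries, 1.19 times that limit, so the bound rests on this library. Without the filter Gata5 was not called (edgeR adjusted p = 0.0583). Exons of Gata5 share 258 bases (7.87%) with the antisense gene Gata5os. Gata6 (Entrez 14465, chr18:11052510-11085636), the other factor of that subgroup, had 4, 0, 6, 0 and 7 counts in luminal and 7, 1, 0, 11 and 0 counts in basal replicates 1 to 5, with sums of 17 and 19. The ratio of basal to luminal CPM for Gata6 was 1.17 (interval 0.578 to 2.40), and the edgeR adjusted p without the filter was 0.895.

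The second comparison asked how the 9 genes ranked within a layer. For this, CPM was divided by the length of all annotated exons of the gene in kilobases (kb), since longer transcripts give more reads. In luminal cells Gata3 stood at 129 ± 15.2 CPM per kb (SD, n = 5), percentile 97.7 among the genes tested. Trps1 followed at 12.3 ± 2.13 CPM per kb, percentile 72.2, and Zfpm1 at 9.23 ± 2.11 CPM per kb, percentile 65.4. The libraries of Trps1 and Zfpm1 overlapped, so their order was not resolved in luminal cells. Zfpm2 was far lower, at 0.419 ± 0.0446 CPM per kb, and the remaining genes followed from Gata4 at 0.160 CPM per kb down to Gata2 at 0.00227 CPM per kb, each overlapping the next.

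In basal cells Gata3 again led, with 49.2 ± 4.52 CPM per kb (SD, n = 5), percentile 92.9. Zfpm1 came next at 5.90 ± 0.936 CPM per kb and then Trps1 at 4.68 ± 1.19 CPM per kb, with overlapping libraries. This pair changed places when the longest transcript or the coding length was used in place of all exons. Zfpm2 had 0.434 ± 0.145 CPM per kb, and Gata1, Gata4, Gata6 and Gata2 lay between 0.0847 and 0.0330 CPM per kb with overlapping libraries. Gata5 was at 0. In both layers the lowest Gata3 library was above the highest library of every other gene of the 9, and Zfpm2 was above every library of the 5 lowly expressed genes.

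**Figure D2:**
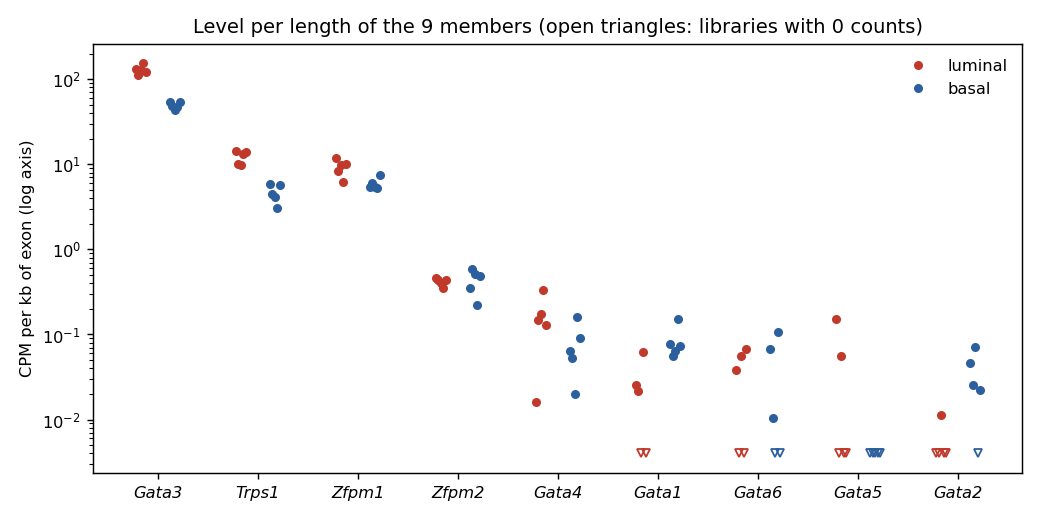
CPM per kb of exon (vertical log axis) of the 9 genes in each luminal (red) and basal (blue) library, with open triangles at the bottom for libraries with 0 counts. Genes are drawn in the order Gata3, Trps1, Zfpm1, Zfpm2, Gata4, Gata1, Gata6, Gata5 and Gata2, which for the last genes is not the order of their means. Gata3 lies at 129 CPM per kb in luminal and 49.2 in basal cells, Trps1 and Zfpm1 lie lower with overlapping points, and the genes from Gata4 rightwards stay below 1 CPM per kb.

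Within the DNA-binding family of Trps1 and Gata1 to Gata6, Gata3 held 91.1% ± 1.27 of the summed CPM per kb in luminal libraries and 91.0% ± 1.31 in basal libraries (SD, n = 5 each). Trps1 held 8.68% ± 1.29 and 8.55% ± 1.50. Gata1, Gata2, Gata4, Gata5 and Gata6 each held at most 0.320% in any library. Both shares differed between the layers by less than their SD. The sizes of the shares rest on the division by length. Without it the Gata3 share of the luminal family was 75.7%, and Trps1 had 13052 luminal counts in sum against 40770 for Gata3.

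Ratios within a library do not depend on how libraries are scaled, so they compare family members directly. All 6 pairs of the 4 tested genes were compared, as the difference in mean log2 count ratio, with an exact two-sided permutation test over all 252 arrangements of the libraries and Benjamini-Hochberg adjustment over the 6 pairs. The ratio of Trps1 to Gata3 ran from -1.94 to -1.36 on the log2 scale in luminal and from -2.18 to -1.45 in basal libraries, so the ranges overlapped in part. It differed by 0.03 between the layers, with a 95% interval of -0.31 to 0.41 (exact permutation p = 0.897). Differences within this interval were not resolved. With offsets for GC content and transcript length the edgeR log2 fold change of Trps1 became 1.95 and that of Gata3 1.38, a difference of 0.57. This is a difference of fitted fold changes and not of mean count ratios, and no test was made of it. It lies above the interval of -0.31 to 0.41. The longest transcript of Trps1 has a GC content of 40.7% and that of Gata3 49.7%.

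Trps1 and Gata3 both had larger luminal to basal folds than Zfpm1. The log2 ratio of Gata3 to Zfpm1 was 3.69 to 4.82 in luminal and 3.01 to 3.53 in basal libraries, without overlap, a difference of 0.76 (95% interval 0.36 to 1.27, exact permutation p = 0.00794, adjusted p = 0.0159). This p is the smallest that 5 against 5 libraries can give. With signs flipped within the 5 pairs of equal replicate number, the smallest exact permutation p is 0.0625, so none of the 6 ratios could pass in that form. It was 0.0625 for the 4 ratios of Trps1 or Gata3 to Zfpm1 or Zfpm2, 0.125 for Zfpm1 to Zfpm2 and 0.75 for Trps1 to Gata3. Trps1 to Zfpm1 was 1.92 to 3.06 in luminal and 1.13 to 2.08 in basal libraries, overlapping, a difference of 0.79 (interval 0.25 to 1.38, exact permutation p = 0.0159, adjusted p = 0.0238). Luminal replicate 4, the library with the least Zfpm1 among luminal ones, held the highest value of both ratios. Without it the differences were 0.56 (exact permutation p = 0.0159) and 0.62 (exact permutation p = 0.0238). Taken as differences of edgeR log2 fold changes with GC and length offsets, without a test, they were 0.42 and 0.99. Both ratios were higher in the luminal library in 5 of 5 pairs.

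Against Zfpm2 the differences were larger. The log2 ratio of Trps1 to Zfpm2 was 1.40 higher in luminal cells (interval 0.82 to 1.99, exact permutation p = 0.00794, adjusted p = 0.0159), and that of Gata3 to Zfpm2 was 1.37 higher (interval 0.62 to 1.99, exact permutation p = 0.00794, adjusted p = 0.0159), in 5 of 5 pairs each. The log2 ratio of Zfpm1 to Zfpm2 was 0.60 higher (interval 0.07 to 1.22), in 4 of 5 pairs, and did not pass after adjustment (exact permutation p = 0.0476, adjusted p = 0.0571). In CPM per kb, Gata3 exceeded Trps1 10.7 ± 1.71 times in luminal and 11.0 ± 2.50 times in basal libraries, and exceeded Zfpm1 14.9 ± 5.69 times and 8.45 ± 1.12 times (SD, n = 5 each).

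**Figure D3:**
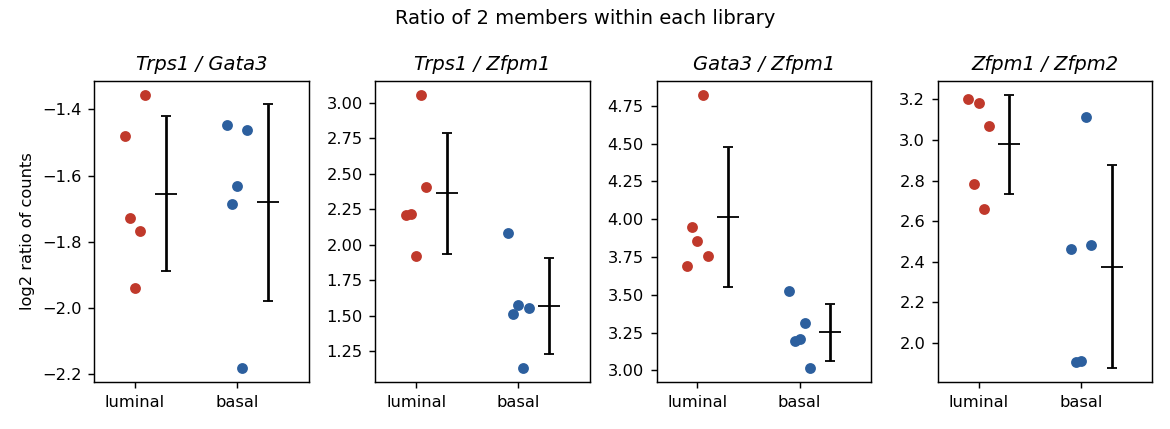
Log2 ratio of counts of 4 gene pairs within each luminal (red) and basal (blue) library, with mean ± SD in black; each panel has its own vertical scale. The Trps1 to Gata3 ratios of the layers overlap, with a difference of 0.03, while those of Gata3 to Zfpm1 do not overlap, with a difference of 0.76.

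The third comparison set the basal level of these genes beside that of the luminal markers, which also report on luminal RNA in the basal sort. Basal libraries held 38.0% of the luminal mean of Trps1 and 38.1% of that of Gata3. The 16 luminal markers were at 0.0835% (Prlr, the prolactin receptor) to 21.7% (Krt8, a luminal keratin) of their luminal mean in basal libraries, with a median of 0.592%, and 13 of the 16 were under 10%. Basal markers were at 0.143% to 1.604% of their basal mean in luminal libraries. No luminal marker on the list had a basal share as high as that of Trps1, Gata3 or Zfpm1 (63.9%). The markers were listed because they are known as luminal genes. Among all genes tested, the log2 fold changes of Trps1, Gata3 and Zfpm1 stood at percentiles 85.44, 85.42 and 69.3. Elf5, Kit and Cd14, genes of luminal progenitors, were at 0.179%, 0.652% and 0.276%. Of the markers of other stromal cells, the 5 mural cell genes did not move together: Notch3 was called higher in luminal cells (165 and 4.58 CPM), and Rgs5, Cspg4 and Kcnj8 were called higher in basal cells. Their sum without Notch3 was 0 to 1.84 CPM in luminal and 21.4 to 36.9 CPM in basal libraries, and with Notch3 it was 94.8 to 268 CPM and 26.2 to 40.4 CPM. The 6 fibroblast genes summed to 23.6 to 111 and 26.7 to 41.7 CPM, with Dcn called higher in luminal and Pdgfra in basal cells. The 4 adipocyte genes summed to 0.610 to 2.21 and 3.94 to 8.87 CPM, with Adipoq at 0 counts throughout. The part of such cells in the levels of Trps1, Gata3 and Zfpm1 was not tested.

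**Figure D4:**
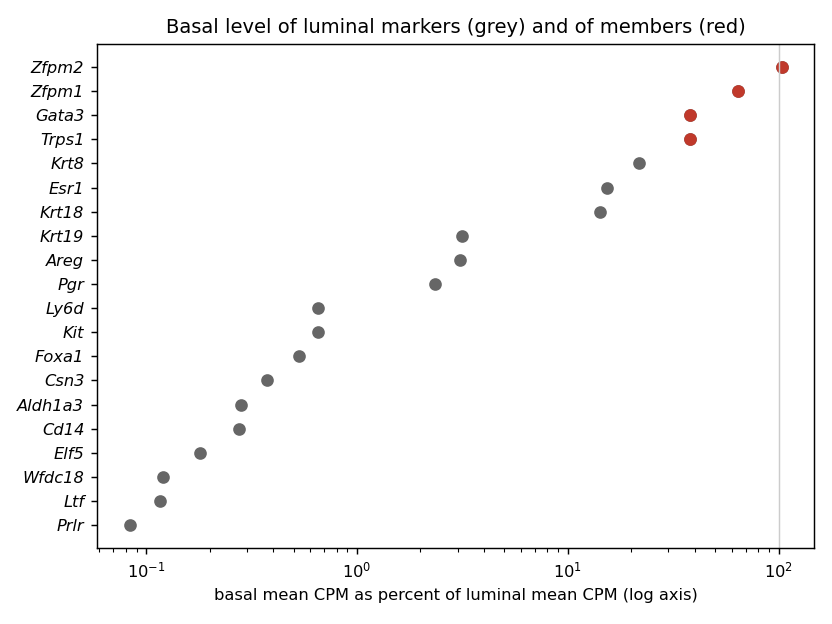
Basal mean CPM as percent of luminal mean CPM (horizontal log axis) for 16 luminal markers (grey) and the 4 tested genes (red), 5 libraries per layer; the vertical line marks equal levels. The 4 genes lie at 38.0% or above and the markers at 21.7% or below.

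Partner genes of the GATA, TRPS1 and FOG proteins were taken from 4 lists. Over all genes tested the median log2 fold change was 0.05, and 33.6% were called higher in luminal and 31.2% in basal cells. Among 8 other genes with a GATA-type zinc finger, 2 were higher in luminal cells, 2 in basal cells and 4 were not called, with a median log2 fold change of 0.06. The split was 3 luminal against 2 basal calls with upper-quartile factors, 3 against 1 with library totals and 1 against 2 with GC and length offsets. Over all genes tested, 51.8% of the calls were luminal in the main fit. This share was 57.3% with upper-quartile factors, 60.6% with library totals, 52.6% with GC and length offsets and 51.1% with the replicate block. Gatad1 was called higher in luminal cells with upper-quartile factors and with library totals (edgeR adjusted p = 0.0139 and 0.00989). Mta3, a NuRD subunit, was at 55.8 CPM in luminal and 18.8 CPM in basal cells (log2 fold change 1.57, SE 0.16, edgeR adjusted p = 6.93e-07). Gatad2b, another NuRD subunit, was at 105 and 214 CPM (log2 fold change -1.02, SE 0.15, adjusted p = 2.66e-05), and its paralog Gatad2a at 92.2 and 84.5 CPM was not called. Mta2 was higher in basal cells by a log2 fold change of -0.45 (adjusted p = 0.00251). The call of Zglp1, a gonadal GATA-like protein, at 1.03 (adjusted p = 0.0161) was lost with GC and length offsets (adjusted p = 0.322).

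NuRD and CtBP are the corepressors that TRPS1 and FOG proteins recruit. Among 15 such genes, which include the Mta and Gatad2 genes above, 3 were higher in luminal cells, 6 were higher in basal cells and 6 were not called, with a median log2 fold change of 0.01. The 2 CHD remodellers differed in their values: Chd3 was at 152 CPM in luminal and 44.6 CPM in basal cells (log2 fold change 1.76, SE 0.18, edgeR adjusted p = 1.23e-06), whereas Chd4 was at 297 and 295 CPM and not called (0.01, SE 0.23, adjusted p = 0.982). Of the histone deacetylases Hdac1 and Hdac2, Hdac1 was higher in luminal cells (53.5 and 22.4 CPM, log2 fold change 1.26, adjusted p = 4.57e-05) and Hdac2 in basal cells (34.1 and 46.2 CPM, log2 fold change -0.43, adjusted p = 0.0199). Of the CtBP corepressors, Ctbp1 was at -0.50 (adjusted p = 0.00228) and Ctbp2 was not called (78.2 and 69.0 CPM, 0.18, adjusted p = 0.284), although it was called higher in luminal cells with library totals (adjusted p = 0.0289). Mbd2 and Mbd3, the methyl-DNA-binding-domain subunits, were at -0.48 and -0.37. With the replicate block the call of Mbd3 was lost (edgeR adjusted p = 0.0556), for a split of 3 luminal against 5 basal calls. The 5 smaller basal calls, Mta2, Hdac2, Mbd2, Mbd3 and Ctbp1, were lost when libraries were scaled by their totals, which left a split of 4 genes to 1 in favour of the luminal layer. Over all genes tested, that scaling moved the median to 0.24 and the calls from 4904 luminal against 4558 basal to 5702 against 3705. With upper-quartile factors the calls of Hdac2 and Mbd3 were lost, for a split of 3 to 4. With GC and length offsets Hdac2 was lost (adjusted p = 0.0750) and Rbbp4 was called higher in luminal cells (adjusted p = 0.0495), for a split of 4 to 5. The calls of Chd3, Mta3, Hdac1 and Gatad2b held under every scaling tried.

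LMO and LDB proteins bridge GATA factors to basic helix-loop-helix (bHLH) partners. The list of 18 genes also held other transcription factors and corepressors known from GATA complexes in blood, namely Runx1, Fli1, Erg, Klf1, Gfi1b, Cbfa2t2 and Cbfa2t3. Of the 18 genes 12 were tested, and 2 were higher in luminal cells, 7 in basal cells and 3 were not called, with a median log2 fold change of -0.50. Of the 7 basal calls, Lmo1, Lyl1 and Tcf4 encode LMO or bHLH proteins, and Runx1, Fli1, Cbfa2t2 and Cbfa2t3 do not. The split and the median include genes that passed the filter only through the layer where they were high. Lmo1 and Fli1 had at most 6 and 2 counts in a luminal library, and Lmo2 at most 11 in a basal library. When at least 10 counts were required in every library, 9 genes of the list were tested and 7 were called. With the default filter 64.8% of all genes tested were called, and the share at the stricter setting is not given here. The split was 4 luminal against 5 basal calls with library totals and 4 against 6 with GC and length offsets. Over all genes tested, 60.6% and 52.6% of the calls were luminal at these settings. Cbfa2t2 and Cbfa2t3 lost their calls with library totals (adjusted p = 0.0559 and 0.107) and with GC and length offsets (0.225 and 0.118). Lmo1 had at most 6 counts in a luminal library and 21.0 to 32.2 CPM in basal libraries (log2 fold change -7.49, SE 0.45, edgeR adjusted p = 4.96e-09). Fli1, an ETS factor of blood and endothelium, was at 0 to 0.127 CPM in luminal and 2.37 to 4.10 CPM in basal libraries (-5.38, adjusted p = 2.98e-06). With so few luminal counts the size of these folds is imprecise. Runx1, the runt factor that works with GATA proteins in blood, was at 281 CPM in luminal and 725 CPM in basal cells (-1.37, adjusted p = 0.000101). Tcf4, a bHLH partner, was at 46.2 and 102 CPM (-1.14, adjusted p = 1.48e-06), while Tcf3 and Tcf12 were not called. Both were called higher in luminal cells with library totals (adjusted p = 0.0107 and 0.0461) and with GC and length offsets (adjusted p = 0.0195 and 0.000822). Lmo4, the other gene not called, was at 120 and 152 CPM, and it was called higher in basal cells with DESeq2 size factors (adjusted p = 0.0427) and with GC and length offsets (adjusted p = 0.00117). Lyl1, the blood bHLH factor, was at 5.64 and 19.3 CPM (-1.78, adjusted p = 3.58e-05). Ldb1, the bridging cofactor itself, was at 206 and 154 CPM (0.42, adjusted p = 0.0163), a call lost with the replicate block and the offsets together (adjusted p = 0.067). Lmo2 was low, at 2.37 and 0.323 CPM (2.83, adjusted p = 0.00404). Tal1, the bHLH factor of the blood complex, had at most 2 counts in a library. Beside Fli1 and Lyl1 stand the endothelial marker sums given above, and the 8 macrophage and B cell markers, which summed to 19.4 to 27.8 CPM in luminal and 48.7 to 75.1 CPM in basal libraries. Of the latter, Csf1r, Cd68 and Cd74 were called higher in basal cells, and Lyz2 and C1qa in luminal cells. Their part in these values was not tested.

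The Ikaros family shares its C-terminal type of zinc finger with TRPS1. Called genes made up 64.8% of all genes tested. Of 5 Ikaros family genes 4 were tested and all 4 were called. One of them, Ikzf1, had at most 8 counts in a basal library and passed the filter only through the luminal layer. When at least 10 counts were required in every library, 3 genes were tested and all 3 were called. The share of all genes called at that setting is not given here. Ikzf1, the blood factor, was higher in luminal cells at a low level (2.25 and 0.215 CPM, log2 fold change 3.36, SE 0.68, edgeR adjusted p = 0.000569). Ikzf2 (12.1 and 30.4 CPM, -1.33, adjusted p = 1.49e-05) and Ikzf5 (19.9 and 38.8 CPM, -0.96, adjusted p = 3.75e-05) were higher in basal cells. Ikzf4 was called at -0.53 (adjusted p = 0.0437), and this was lost with upper-quartile scaling (adjusted p = 0.119), library totals (0.186), the replicate block (0.0557), GC and length offsets (0.232) and both of the latter together (0.215). The median of the 4 was -0.74. T cell and innate lymphoid markers Cd3e, Cd3g, Cd2 and Cd4 were at 0 counts in all libraries, and the 8 markers of these cells summed to 0 to 3.31 CPM in luminal and 0.125 to 3.71 CPM in basal libraries. Without Il1rl1 these sums were 0 to 0.526 CPM and 0 to 0.232 CPM. Beside the luminal calls of Ikzf1 and Lmo2 stand the blood cell markers Hba-a1, Pf4, Lyz2 and C1qa, also called higher in luminal cells. They were at 9.72, 2.27, 1.31 and 1.54 CPM in luminal and 0.0499, 0.356, 0.395 and 0.406 CPM in basal cells. On the same marker lists, others went the other way. Csf1r (9.31 and 14.8 CPM), Cd68 (8.27 and 29.6 CPM) and Cd74 (2.62 and 20.7 CPM) were called higher in basal cells. Alas2 and Itga2b were not called. The part of blood cells in the values of Ikzf1 and Lmo2 was not tested.

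**Figure D5:**
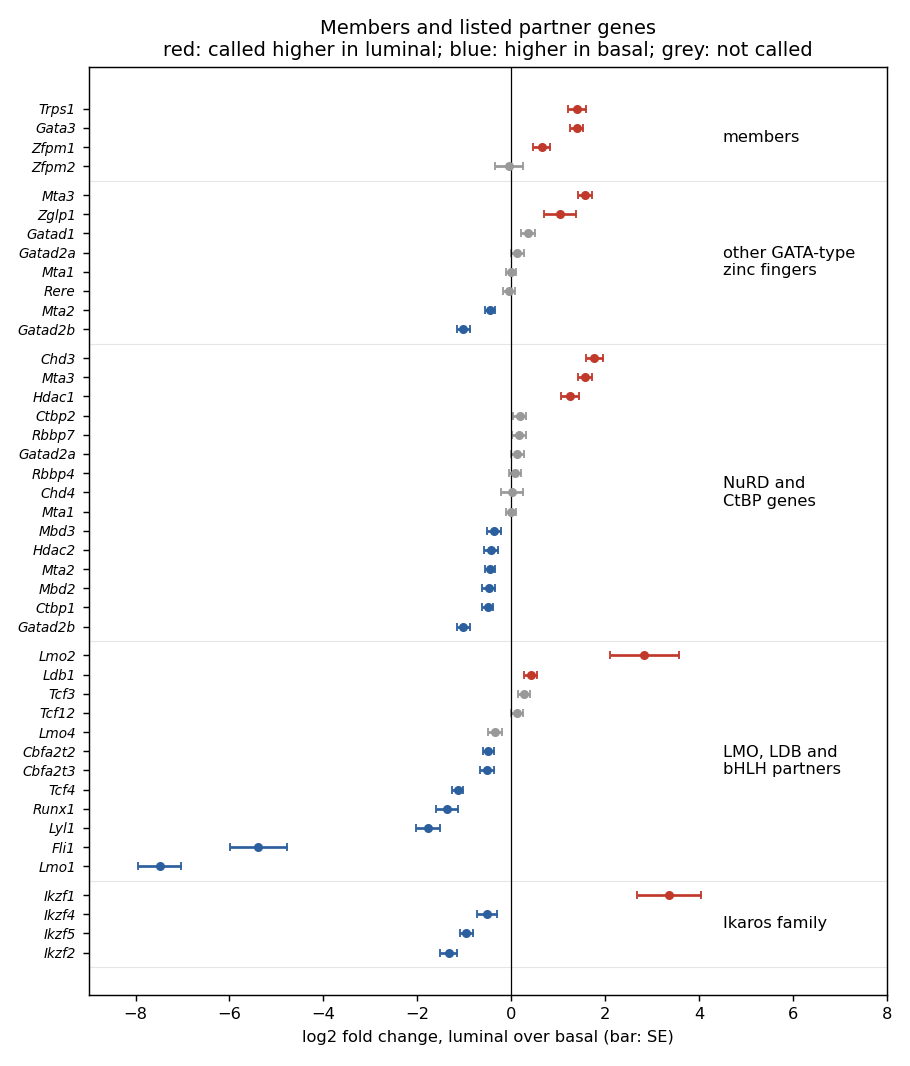
Log2 fold change, luminal over basal, with its SE (bars) for the 4 tested genes and the tested genes of the 4 partner lists, coloured by edgeR call (red: higher in luminal, blue: higher in basal, grey: not called). Genes on 2 lists appear on both; the NuRD genes range from -1.02 (Gatad2b) to 1.76 (Chd3), and Lmo1 lies lowest at -7.49.

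Genes with the profile closest to that of Trps1 and Gata3 were found by Pearson's r of log2(CPM + 0.5) over the 10 libraries. The search covered 10080 genes with a mean of at least 10 CPM over these libraries. Because the layers differ in most genes, this r mostly reflects the difference between layers that all 10 libraries share. The closest to Trps1 were Glt28d2 (r = 0.979), Numb (0.978) and Rab27b (0.975), and Gata3 ranked 59 with r = 0.950. The closest to Gata3 were Traf2 (0.993), Nr3c2 (0.992) and Pacsin3 (0.992), and Trps1 ranked 538. After each layer's mean was subtracted, the closest to Trps1 were Kansl1 (0.974), Trim33 (0.945) and Litaf (0.944), and those to Gata3 were Zfp36 (0.944), Chd7 (0.931) and Csnk1g3 (0.927). Trps1 and Gata3 then had r = 0.60 with each other, at ranks 729 and 472. With Spearman's rho none of the 6 genes named first was again among the closest 3, so these names are a description of one measure.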

How the data were processed

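Bulk RNA-seq of 5 luminal and 5 basal libraries was analysed from raw counts per gene, which the authors deposited as whole numbers without normalization. Per the submitters' processing notes, reads were trimmed with cutadapt 4.2 and aligned to mm10 with Bowtie2 2.3.5.1, which does not align across splice junctions, so genes with many short exons can be undercounted. The counting tool and annotation are not given in the sources used here, and the study's methods name fewer replicates per condition. Symbols and coordinates came from a RefSeq table of GRCm38.p6 (24570 of 24594 genes matched), exon lengths and GC content from GENCODE M21.

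Genes passing filterByExpr (minimum count 10, minimum total count 15) were scaled with TMM and tested with edgeR 4.0.16 (R 4.3.3, quasi-likelihood, cell type as the only term), with Benjamini-Hochberg adjustment over 14609 genes and calls at an adjusted p under 0.05. SEs were derived from the F statistic. Ratios used log2 of counts plus 0.5. In simulated data edgeR recovered 57% of 100 genes changed 2-fold and 93% of 100 changed 4-fold, with 5 false calls. The simulation changed 200 of 14609 genes, equally in both directions, whereas 64.8% of genes were called in the real data. These rates therefore do not describe a comparison with so many changed genes.

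Replicate numbers come from the titles, and luminal and basal libraries of 1 number begin with the same number in their descriptions, taken as the animal. This is the source of the pairing. If it is wrong, p-values measure only the spread between these samples. Deviations from the layer means of such pairs correlated at -0.09 to 0.13 across genes. The members and lists were chosen with earlier results of these data known. Genes named are the members, list genes and the 3 closest profiles per measure. The ratio pairs other than Trps1 to Gata3, the offsets applied to ratios and the sign flips within pairs were added after seeing the data. Alternatives were DESeq2 1.42.0 and its size factors, limma 3.58.1 voom, upper-quartile factors, library totals, no filter, at least 10 counts in every library, the replicate block, GC and length offsets (known for 93.8% of genes tested), thinning to 13203146 counts and leaving out each library.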

Additional observations from a re-analysis of the deposited data

Results flagged for a closer look

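Gata1 in basal replicate 4 was at 0.375 CPM, or 6 counts, against 0.136 to 0.187 CPM in the other 4 basal libraries. Its gap to the nearest library was 0.788 of the range of the group, above the Dixon limit of 0.71 for 5 samples. It was 1 of 86 groups tested in this way, of which chance would pass about 4.3.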

How the results depend on the processing

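Gata3, Trps1 and Zfpm1 were called higher in luminal cells under each of the 11 other settings and when each library was left out in turn. The log2 fold change of Trps1 was 1.33 to 1.95 over the settings and 1.26 to 1.48 with a library left out (highest edgeR adjusted p = 0.000117), that of Gata3 was 1.33 to 1.58 and 1.32 to 1.45, and that of Zfpm1 was 0.58 to 0.96 and 0.56 to 0.76 (highest adjusted p = 0.0197). With the replicate block the values were 1.41, 1.39 and 0.63, and the block changed no call of the 4 tested members. Without the filter Gata2 joined them, for 4 calls. The fold change of Zfpm2 changed sign with upper-quartile factors (0.0729), library totals (0.14), limma voom (0.0469), the replicate block (0.0112), GC and length offsets (0.35) and both together (0.40), and ran from -0.22 to 0.07 with a library left out, above 0 without luminal replicate 4 (0.0074), basal replicate 2 (0.0725) or basal replicate 3 (0.02). It was called under none of these.

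The Trps1 to Gata3 difference ran from -0.10 to 0.10 with a library left out, and was below 0 without luminal replicate 1 (-0.02), luminal replicate 5 (-0.05) or basal replicate 4 (-0.10). Taken as a difference of edgeR log2 fold changes, it was 0.57 with GC and length offsets and 0.56 with these and the replicate block. Calls among NuRD and CtBP genes fell from 9 to 5 with library totals, and were 7 to 9 with a library left out. The replicate block also ended the calls of Mbd3 and Ikzf4. The Gata3 share of the luminal family was 75.7% when counts were not divided by length, since Trps1 has the longest exons of the 9 genes. Spearman's rho kept 0 of the 6 closest profiles. Scaling moved the median log2 fold change of all genes from 0.05 to 0.17 (upper quartile) and 0.24 (library totals). Low counts limit what can be said of Gata1, Gata2, Gata4, Gata5 and Gata6, with at most 17 counts in a library.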
